A study of Mus musculus with 15 samples.

Results

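Microglia of high autofluorescence sorted from the brains of old mice were compared with microglia sorted from young mice. The comparison takes 8 of the 15 libraries of the series, chosen by their labels alone. The AF-high group (n = 5) came from 18-month-old mice given no treatment, and its cells were collected for high autofluorescence. Young libraries (n = 3) were made from untreated mice of 3 months, and their labels name no autofluorescence gate, so that age and gate cannot be told apart. The labels do not state strain, sex, the surface markers of the sort, or whether a library holds 1 animal or a pool. Libraries of 1 group are titled as biological replicates. The other 7 libraries, AF-low (n = 3, old mice, low autofluorescence) and PLX5622 (n = 4, old mice given that inhibitor of the CSF1 receptor), entered the fit for its estimate of spread and are shown where they bear on a result.

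Microglia are the resident macrophages of the brain. They depend on signals through the CSF1 receptor, survey the tissue with receptors for nucleotides, chemokines and lipids, and take up debris that they degrade in lysosomes. With age, part of what they take up is not degraded and builds up as lipofuscin, the pigment to which the autofluorescence of old microglia is commonly ascribed. Old and plaque-associated microglia are also known for raised transcripts of a set of genes that includes Spp1, Itgax, Lpl and Cst7, for interferon-induced genes, and for a readiness to release cytokines.

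Expression is given in TPM, transcript abundance scaled per length and to a like total in each library. Differences are AF-high minus young on the log2(TPM + 1) scale with the standard error from limma, which was fitted over 13175 genes, and every adjusted p is from that fit. Totals lay between 956489 and 963024 TPM per library. TPM keeps no read count, so the depth behind a value is unknown. All 14 microglial markers were measured, and their summed level was 10700 to 14210 TPM in AF-high and 12190 to 13830 TPM in young libraries, so the groups overlapped in it. Libraries stood apart in 2 respects. Young 1 and young 2 carried transcripts of choroid plexus, the tissue that makes cerebrospinal fluid: the 9 measured markers summed to 8967 and 5918 TPM there, to 222 TPM in young 3 and to 37.4 to 392 TPM in AF-high. In such bulk samples fewer cells of a type and less RNA per cell cannot be told apart. AF-high 2 and 3 had 5.38% and 7.66% of TPM on mitochondrially encoded genes, against 2.37% to 2.70% in AF-high 1, 4 and 5 and 2.09% to 2.24% in young. The root mean square distance of a library to its group mean, over genes, was 0.364 to 0.560 log2 units in AF-high and 0.228 to 0.258 in young, with no overlap.

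Every AF-high library exceeded every young one for the secreted ligand Spp1, the integrin Itgax, the cytokines Il1b, Tnf and Il10 and the Fc receptor chain Fcer1g. Each was under every young library for the chaperone Hspa8 and the IgG receptor Fcgr1. No single gene, however, passed the test between AF-high and young (0 of 13175 genes, 0%, at an adjusted p under 0.05). The smallest adjusted p was 0.0582, shared by 9 genes. At an adjusted p under 0.1 there were 23 genes, 12 higher and 11 lower in AF-high. At an unadjusted p under 0.05, 470 genes were higher (3.57% of those tested) and 976 were lower (7.41%). Under quantile normalization, which gives all libraries the same distribution, that split was 711 higher and 753 lower, so that the excess of lower genes was smaller under that scaling. Counting only genes for which no AF-high library overlapped a young one, 347 were higher (2.63%) and 678 lower (5.15%). Under quantile normalization these counts were 544 and 525, so the excess of lower genes was not seen under that scaling. The genes higher without overlap had a median mean level of 36.4 TPM in young, the lower ones 14.01 TPM, and all genes 16.2 TPM. Their longest annotated transcripts had median lengths of 2886, 3447 and 3311 bases in the same order. The median difference over all genes was -0.08, and 39% of genes were above 0.

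The call of 0 genes depended on how the unequal scatter of libraries was treated. With 1 weight per library, so that scattered libraries count less, 129 genes passed (limma, adjusted p under 0.05), 67 higher and 62 lower in AF-high. With 1 weight per group 13 passed, of which 11 were higher: Spp1, Ildr2, H2-Q7, Ifi207, Emp3, Fcer1g, Srgn, Hcar2, Bcl2a1a and the gene models Gm4739 and Gm49369. The 2 lower ones were Calml4 and Tspan3. Without young 3 there were 60 called genes, 57 of them lower in AF-high, and 12 of the 60 were on the marker lists of other brain cells. With AF-high 4, AF-high 1 or AF-low 2 left out in turn the calls numbered 19, 9 and 4. A pseudocount of 0.1, no filter and a filter at 5 TPM gave 0 calls, with smallest adjusted p of 0.0536, 0.0536 and 0.0522 (limma). The remaining choices, except quantile normalization with 1 call, gave 0 calls and larger values. With only the AF-high and young libraries in the fit the smallest adjusted p was 0.284 (limma). Without young 2 it was 0.322. The 0.0582 of the main fit thus rests on a spread estimated with the AF-low and PLX5622 libraries included. Srgn, Bcl2a1a, Tspan3 and both gene models are named here after their values were seen.

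**Figure D1:**
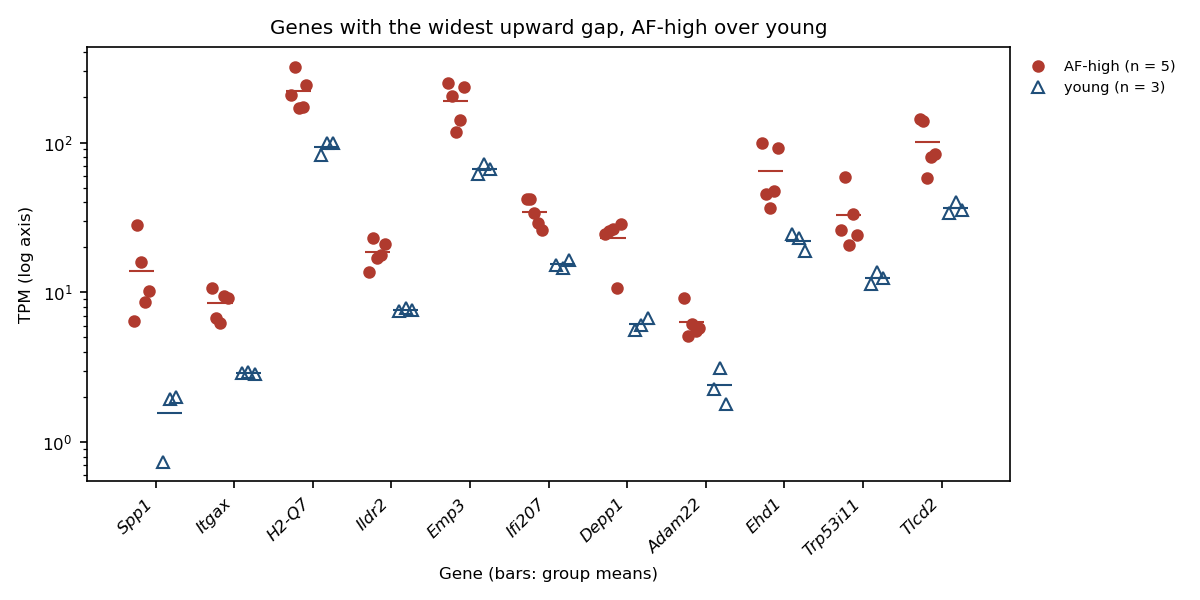
TPM on a log axis in each of the 5 AF-high (filled circles) and 3 young (open triangles) libraries for 11 of the 12 genes with the widest gap upward, that is the lowest AF-high minus the highest young value on the log2(TPM + 1) scale. Horizontal bars mark group means. All AF-high points lie above all young points for each gene, which the choice of these genes fixes.

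The 12 genes with the widest upward gap joined immune surface proteins, an interferon-inducible protein and regulators of membranes. They were chosen by that gap among genes with an unadjusted p under 0.01 and at least 5 TPM in AF-high, so the lack of overlap is not a further result. Spp1, which encodes the secreted integrin ligand osteopontin, was at 6.46, 27.96, 16.04, 8.66 and 10.3 TPM in AF-high 1 to 5 and 0.741, 1.93 and 2.005 TPM in young 1 to 3 (log2 2.41 ± 0.41, adjusted p = 0.0582). AF-high 2 was the highest, and young 1 the lowest of all 8. A predicted transcript overlaps Spp1 on the same strand, so some of its reads may be counted there. Itgax, the integrin alpha chain CD11c that is known from disease-associated microglia, was at 10.7, 6.77, 6.29, 9.42 and 9.17 TPM in AF-high 1 to 5 and 2.92, 2.96 and 2.83 TPM in young 1 to 3 (log2 1.26 ± 0.28, adjusted p = 0.123). The young libraries lay close together and the AF-high values were spread over a wider range. With 1 weight per library both passed (adjusted p = 0.00938 for Spp1 and 0.0254 for Itgax, limma).

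H2-Q7, a nonclassical MHC class I chain, was at 206, 321, 170.0, 174 and 241 TPM in AF-high 1 to 5 and 82.7, 99.5 and 99.5 TPM in young 1 to 3 (log2 1.20 ± 0.20, adjusted p = 0.0582). Its near-identical neighbour H2-Q6 was at 230 ± 68.1 TPM (SD, n = 5) in AF-high and 131 ± 30.5 (n = 3) in young (log2 0.78 ± 0.22, adjusted p = 0.225), and reads of the pair can be shared, so their separate values are uncertain. H2-Q6 overlapped between the groups, since AF-high 3 was under young 3. Ildr2, a membrane protein of the immunoglobulin family, was at 13.8, 23.1, 16.9, 17.9 and 20.9 TPM in AF-high 1 to 5 and 7.48, 7.84 and 7.68 TPM in young 1 to 3 (log2 1.15 ± 0.17, adjusted p = 0.0582). It had the smallest unadjusted p of all genes, and under quantile normalization it was the 1 gene that passed (adjusted p = 0.0165, limma). Ifi207, a member of the interferon-inducible p200 family, was at 41.7, 41.8, 33.6, 29.03 and 26.1 TPM in AF-high 1 to 5 and 15.3, 14.5 and 16.4 TPM in young 1 to 3 (log2 1.09 ± 0.20, adjusted p = 0.073). Emp3, a tetraspan membrane protein, was at 249.9, 204, 118, 141 and 234 TPM in AF-high 1 to 5 and 62.03, 71.4 and 67.1 TPM in young 1 to 3 (log2 1.43 ± 0.28, adjusted p = 0.0933).

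The further genes described were lower in level or more scattered among AF-high libraries. Ehd1, an ATPase of endocytic recycling, was at 36.7 to 98.7 TPM in AF-high and 18.8 to 24.4 TPM in young (log2 1.39 ± 0.43, adjusted p = 0.252). Depp1, a FOXO-induced regulator of autophagy, was at 10.7 to 28.8 TPM in AF-high and 5.65 to 6.76 TPM in young, AF-high 4 being the low one. Trp53i11, a p53-induced gene, was at 20.6 to 59.4 TPM in AF-high and 11.4 to 13.7 TPM in young. Adam22 (a catalytically inactive metalloprotease relative) and Tlcd2 (a membrane lipid regulator) had differences of 1.11 and 1.36. The annotated span of Tlcd2 overlaps, on the same strand, the host transcript of the microRNA miR-22, so reads of the 2 cannot be told apart by position.

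The promoter windows of Spp1, Itgax and Ifi207 are shown because these genes had wide upward gaps and their windows held exact matches to motifs of immune transcription factors. Sequences are from RefSeq (GRCm38.p6), 250 bases before to 50 after a start site, and capitals mark the matches. A set of 5 motifs was searched on both strands: the core of the interferon-stimulated response element (GAAA and GAAA with any 2 bases between), a kappaB form (GGGA and TTCC with any 2 bases between), the AP-1 site TGANTCA, the heat shock element (GAA, TTC and GAA with any 2 bases between each) and a form of the PU.1 site, GAGGAAGT.
Spp1, chr5:104434861-104435160, + strand: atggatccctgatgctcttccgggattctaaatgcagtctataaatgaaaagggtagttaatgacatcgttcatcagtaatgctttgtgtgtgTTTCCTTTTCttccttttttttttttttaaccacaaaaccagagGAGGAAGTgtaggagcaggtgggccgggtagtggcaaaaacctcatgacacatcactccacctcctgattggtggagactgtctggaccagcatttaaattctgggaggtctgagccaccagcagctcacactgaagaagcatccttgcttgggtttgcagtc
Itgax, chr7:128129300-128129599, + strand: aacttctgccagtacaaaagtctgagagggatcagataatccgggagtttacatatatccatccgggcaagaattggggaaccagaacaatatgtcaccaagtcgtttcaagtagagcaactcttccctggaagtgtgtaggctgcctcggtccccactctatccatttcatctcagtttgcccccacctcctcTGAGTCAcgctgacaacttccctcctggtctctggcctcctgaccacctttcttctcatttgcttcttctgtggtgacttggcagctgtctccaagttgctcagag
Ifi207, chr1:173741760-173742059, - strand: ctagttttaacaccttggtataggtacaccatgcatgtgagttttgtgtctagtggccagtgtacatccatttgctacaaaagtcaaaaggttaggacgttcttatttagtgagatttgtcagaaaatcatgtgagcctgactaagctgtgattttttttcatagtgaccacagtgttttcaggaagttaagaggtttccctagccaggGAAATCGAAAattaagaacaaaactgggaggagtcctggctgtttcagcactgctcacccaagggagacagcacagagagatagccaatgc

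Spp1 has a second window in the table, which held none of the 5 motifs. The Spp1 window printed held an interferon-response core on the reverse strand, TTTCCTTTTC, and a PU.1 match, GAGGAAGT. Itgax held an AP-1 match, TGAGTCA, and Ifi207 an interferon-response core, GAAATCGAAA. Of 9744 tested genes with a window, 4.09% had the interferon-response core in at least 1 window, 6.46% the AP-1 site and 3.81% the PU.1 form. Among the 12 genes of the upward gap, 10 had a window in the table and 2 of these held the interferon-response core. None of the 10 held the kappaB form (0), which 1.61% of the 9744 genes held. Of the genes with the widest downward gap, 8 had a window, and 1 of these, Fam107a, held the kappaB form. A match describes letters and not binding.

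**Figure D2:**
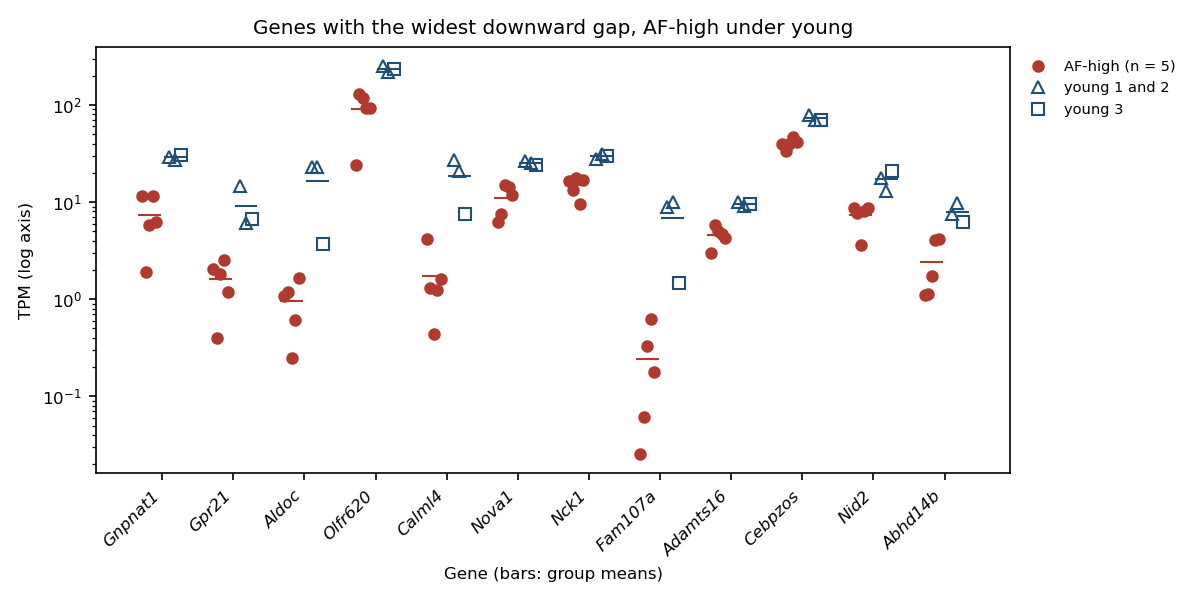
TPM on a log axis in each of the 5 AF-high (filled circles) and 3 young libraries (open triangles for young 1 and 2, open squares for young 3) for the 12 genes with the widest gap downward. Horizontal bars mark group means. Aldoc, Calml4 and Fam107a have young 1 and 2 far above young 3, whereas the other 9 have the 3 young libraries closer together.

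The 12 genes with the widest downward gap included 3 for which young 1 and 2 lay far above young 3. Aldoc, a glycolytic aldolase of astrocytes, was at 1.08, 1.18, 0.248, 0.616 and 1.67 TPM in AF-high 1 to 5 and 23.1, 22.8 and 3.70 TPM in young 1 to 3 (log2 -2.88 ± 0.47, adjusted p = 0.0582). Calml4, a calmodulin-like protein, was at 4.13, 1.30, 0.434, 1.23 and 1.61 TPM in AF-high 1 to 5 and 27.1, 20.8 and 7.56 TPM in young 1 to 3 (log2 -2.79 ± 0.48, adjusted p = 0.0582). Fam107a, an actin-binding protein abundant in astrocytes, was at 0.0254, 0.0610, 0.328, 0.618 and 0.177 TPM in AF-high 1 to 5 and 8.93, 9.96 and 1.48 TPM in young 1 to 3 (log2 -2.40 ± 0.37, adjusted p = 0.0582). Young 3 still exceeded every AF-high library for these 3 genes, by less than young 1 and 2 did. Calml4 is on the choroid plexus list and Aldoc on the astrocyte list, whose sums were also highest in young 1 and 2. With young 1 and 2 left aside the differences were -1.31, -1.77 and -1.02 in place of -2.88, -2.79 and -2.40.

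For the other 9 the young libraries lay closer together. Gnpnat1, an enzyme of the hexosamine pathway that makes UDP-N-acetylglucosamine, was at 11.5, 1.91, 5.83, 11.6 and 6.20 TPM in AF-high 1 to 5 and 29.3, 27.02 and 30.6 TPM in young 1 to 3 (log2 -2.01 ± 0.50, adjusted p = 0.161). AF-high 2 was the low one. Nck1, an adaptor that links receptors to the actin skeleton, was at 9.66 to 17.8 TPM in AF-high and 28.1 to 31.4 TPM in young (log2 -0.98 ± 0.21, adjusted p = 0.121). Nova1, a splicing factor, was at 6.29 to 14.95 TPM in AF-high and 24.1 to 26.5 TPM in young (log2 -1.20 ± 0.28, adjusted p = 0.123). Cebpzos, a small mitochondrial protein, was at 33.5 to 46.3 TPM in AF-high and 69.9 to 78.2 TPM in young (log2 -0.85 ± 0.18, adjusted p = 0.121), and it lies opposite Cebpz, so without strand the 2 cannot be told apart. AF-high 4 was the lowest library for Nck1 and AF-high 1 for Nova1. Nid2, a basement membrane nidogen, was at 3.62 to 8.72 TPM in AF-high and 13.1 to 21.1 TPM in young, the enzyme Abhd14b at 1.10 to 4.16 TPM in AF-high and 6.23 to 9.69 TPM in young and the secreted metalloprotease Adamts16 at 3.02 to 5.75 TPM in AF-high and 9.12 to 9.999 TPM in young. Olfr620, an olfactory receptor gene, was at 24.2 to 128 TPM in AF-high and 217 to 249.5 TPM in young (log2 -1.54 ± 0.38, adjusted p = 0.161). Gpr21, an orphan receptor within the span of Rabgap1 on the same strand, was at 0.399 to 2.56 TPM in AF-high and 6.11 to 14.8 TPM in young. With only young 3 kept, the differences of Gnpnat1, Nck1, Nova1 and Cebpzos were -2.09, -0.97, -1.14 and -0.79, as against -2.01, -0.98, -1.20 and -0.85 with all 3.

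**Figure D3:**
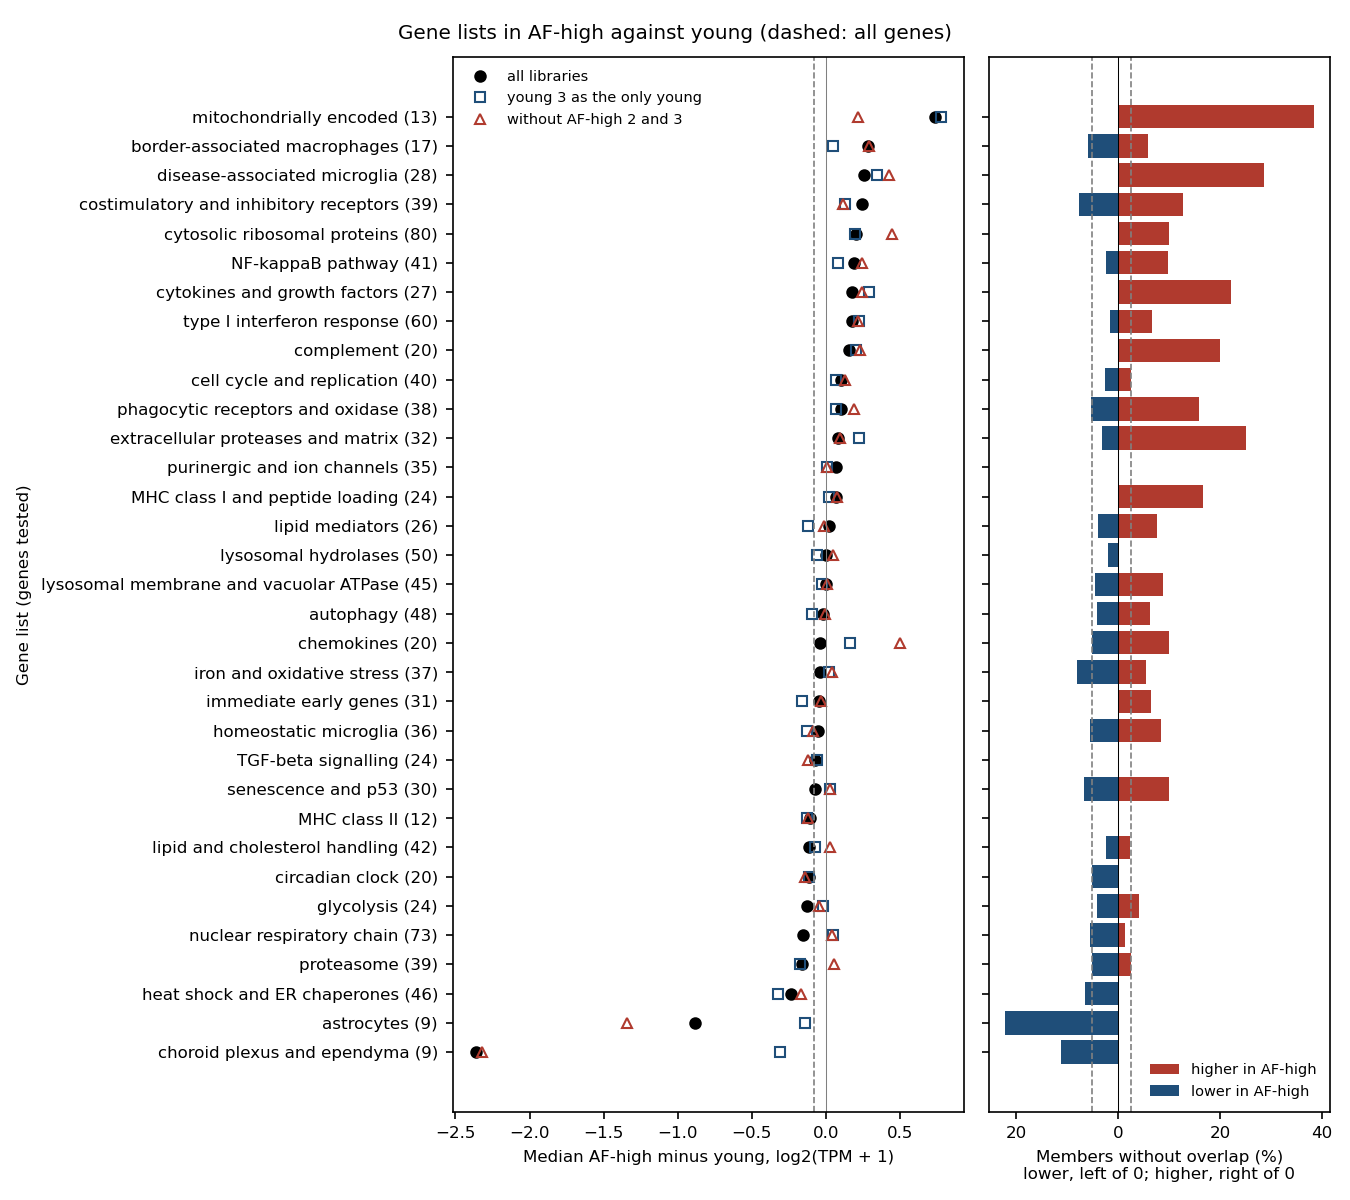
Each row is a gene list. The left panel gives the median AF-high minus young difference on the log2(TPM + 1) scale with all libraries (filled circles), with young 3 as the only young library (open squares) and without AF-high 2 and 3 (open triangles), and the dashed line is the median of all genes, -0.08. The right panel gives the percentage of tested members whose groups did not overlap, higher (right) and lower (left), and the dashed lines are the shares of all genes, 2.63% and 5.15%. Choroid plexus has the lowest median, -2.36, and mitochondrially encoded genes the highest, 0.74.

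Genes of disease-associated microglia, the state described around plaques, were higher in AF-high for 22 of 28 tested members (median 0.26 against -0.08 for all genes). Groups did not overlap for 8 of the 28, all of them higher, whereas 2.63% of all genes were higher without overlap, and none (0) passed the test. This and the following counts cover the members that passed the filter on low values, here 28 of 30. Besides Spp1 and Itgax these included Cst7, the lysosomal protease inhibitor cystatin F, at 41.6, 20.7, 22.7, 19.5 and 13.3 TPM in AF-high 1 to 5 and 7.05, 8.02 and 12.9 TPM in young 1 to 3 (log2 1.20 ± 0.32, adjusted p = 0.187). AF-high 5 was just above young 3. Csf1, a ligand of the receptor on which microglia depend, was at 292, 396, 246, 216 and 300.2 TPM in AF-high 1 to 5 and 105, 136 and 176 TPM in young 1 to 3 (log2 1.05 ± 0.23, adjusted p = 0.121). Lilrb4a, an inhibitory immunoglobulin-like receptor, was at 216, 171, 151, 171 and 187 TPM in AF-high 1 to 5 and 87.5, 110.5 and 112 TPM in young 1 to 3 (log2 0.79 ± 0.17, adjusted p = 0.121). Lyz2 (lysozyme), Lpl (lipoprotein lipase) and Cd68 (a phagolysosomal glycoprotein) also had no overlap, with differences of 0.59, 0.41 and 0.49. Not all core genes of that state behaved so. Apoe, the lipid carrier, was at 274 to 910.1 TPM in AF-high and 348 to 453 TPM in young (log2 0.25 ± 0.34, adjusted p = 0.831). The lectin receptor Clec7a was at 8.34 to 35.95 TPM in AF-high and 13.2 to 15.3 TPM in young (log2 0.18 ± 0.33, adjusted p = 0.882). Trem2, the lipid-sensing receptor, was at 296 to 661 TPM in AF-high and 466 to 538 TPM in young (log2 -0.03 ± 0.22, adjusted p = 0.972). The 3 genes overlapped between the groups.

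Homeostatic genes, the signature of unstimulated microglia, were close to the background: 11 of 36 lay above 0 and the median was -0.05. The nucleotide receptor P2ry12 was at 1298 to 3141 TPM in AF-high and 2265 to 2718 TPM in young (log2 -0.24 ± 0.22, adjusted p = 0.742). The membrane protein Tmem119 was at 484 to 612 TPM in AF-high and 495 to 577 TPM in young (log2 0.00 ± 0.15, adjusted p = 0.998), both overlapping. The CSF1 receptor gene Csf1r was at 1077 to 1818 TPM in AF-high and 1128 to 1293 TPM in young (log2 0.19 ± 0.14, adjusted p = 0.669). Against this background the myeloid transcription factor Spi1, which encodes PU.1, was at 523, 623, 548, 584 and 740.1 TPM in AF-high 1 to 5 and 369, 415 and 406 TPM in young 1 to 3 (log2 0.60 ± 0.14, adjusted p = 0.123). The adhesion receptor Adgrg1 was at 215, 595, 341, 341 and 222 TPM in AF-high 1 to 5 and 169, 177 and 175 TPM in young 1 to 3 (log2 0.88 ± 0.25, adjusted p = 0.223), without overlap. AF-high 2 carried the highest Adgrg1 value. On the lower side the Golgi protein Golm1 was at 124 to 196 TPM in AF-high and 201 to 226 TPM in young (log2 -0.41 ± 0.16, adjusted p = 0.362). The receptor Fcrls was at 741 to 847 TPM in AF-high and 863 to 968 TPM in young (log2 -0.23 ± 0.12, adjusted p = 0.511).

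Cytokine genes were among the higher ones. Of 27 tested cytokines and growth factors, 18 lay above 0 (median 0.18), and 8 were higher and 1 lower at an unadjusted p under 0.05 (all genes, 3.57% and 7.41%). Without overlap 6 were higher (all genes, 2.63%). None passed (0). Il1b, the interleukin that the inflammasome processes, was at 1049.5, 411, 324, 297 and 1275 TPM in AF-high 1 to 5 and 218, 253 and 211 TPM in young 1 to 3 (log2 1.29 ± 0.43, adjusted p = 0.292). AF-high 1 and 5 stood high and the other 3 were nearer to young. Il1a was at 2122 to 3462 TPM in AF-high and 1975 to 2071 TPM in young (log2 0.42 ± 0.14, adjusted p = 0.3). Tnf was at 227 to 499 TPM in AF-high and 183 to 194 TPM in young (log2 0.86 ± 0.25, adjusted p = 0.234), with AF-high 1 and 5 again the highest for Tnf. The anti-inflammatory Il10 was at 30.6, 41.1, 24.6, 14.2 and 21.5 TPM in AF-high 1 to 5 and 8.60, 8.82 and 11.3 TPM in young 1 to 3 (log2 1.30 ± 0.40, adjusted p = 0.256). For each of these 4 genes every AF-high library was above every young one. Csf1 was also among the 6.

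Chemokines lay on both sides: 9 of 20 lay above 0 and the median was -0.04, which turned to 0.17 under quantile normalization, to 0.50 without AF-high 2 and 3, and to 0.16 with young 3 as the only young library. At an unadjusted p under 0.05, 4 were higher and 1 lower (all genes, 3.57% and 7.41%). Cxcl16, a membrane-bound attractant of T cells, was at 196, 153, 91.5, 91.3 and 176 TPM in AF-high 1 to 5 and 66.4, 66.8 and 63.4 TPM in young 1 to 3 (log2 1.03 ± 0.26, adjusted p = 0.161). Cxcl2, an attractant of neutrophils, was at 120.3, 43.5, 44.3, 54.2 and 89.8 TPM in AF-high 1 to 5 and 26.8, 34.6 and 27.6 TPM in young 1 to 3 (log2 1.11 ± 0.30, adjusted p = 0.21). Cxcl13, the B-cell attractant, was at 6.20, 0.252, 6.71, 3.03 and 2.43 TPM in AF-high 1 to 5 and 1.16, 0.217 and 0.171 TPM in young 1 to 3 (log2 1.44 ± 0.47, adjusted p = 0.279), and AF-high 2 lay within the young range. The abundant Ccl4 was at 2091 to 3847 TPM in AF-high and 2132 to 2553 TPM in young (log2 0.24 ± 0.18, adjusted p = 0.679). Ccl12 was at 1903 to 5334 TPM in AF-high and 3388 to 4810.5 TPM in young (log2 -0.47 ± 0.29, adjusted p = 0.584), so both overlapped. Among 41 genes of the NF-kappaB pathway, 31 were above 0 (median 0.19), 4 higher and 1 lower without overlap (all genes, 2.63% and 5.15%). With young 3 as the only young library 27 were above 0 and the median was 0.08. The higher ones included Irak2, a kinase of interleukin-1 and Toll-like receptor signalling, at 94.6 to 191 TPM in AF-high and 59.4 to 83.6 TPM in young (log2 0.90 ± 0.23, adjusted p = 0.169). Tnfaip2, a TNF-induced gene, was at 13.2 to 40.5 TPM in AF-high and 9.09 to 11.9 TPM in young (log2 1.18 ± 0.30, adjusted p = 0.169). The lower one was Nfkbiz, a nuclear inhibitor and coactivator, at 1241 to 1851 TPM in AF-high and 1860 to 2489 TPM in young (log2 -0.61 ± 0.17, adjusted p = 0.21).

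**Figure D4:**
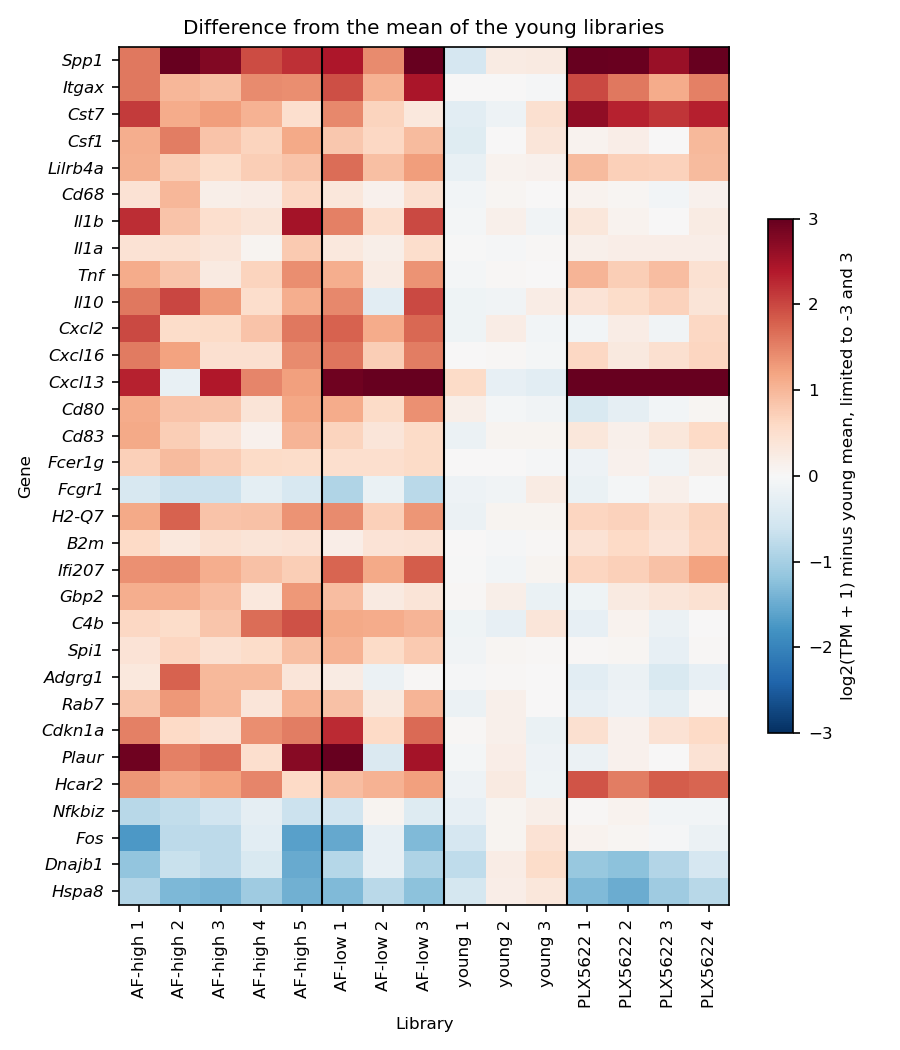
Difference of each of the 15 libraries from the mean of the 3 young libraries on the log2(TPM + 1) scale (colour, limited to -3 and 3) for immune and chaperone genes the text names. Columns are libraries by group and rows are genes. In AF-high 1 and 5 Il1b, Tnf and Cxcl2 are higher than in AF-high 2 to 4, and Hspa8 is lower than the young mean in all 5.

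Receptors that steer other immune cells were counted next. Of 39 costimulatory and inhibitory receptors and ligands, 26 were above 0 (median 0.24, but 0.13 with young 3 as the only young library), 5 higher and 3 lower without overlap (all genes, 2.63% and 5.15%). Cd80, a costimulatory ligand of T cells, was at 64.5 to 111 TPM in AF-high and 45.6 to 55.3 TPM in young (log2 0.87 ± 0.20, adjusted p = 0.123). Cd83, a maturation marker of antigen-presenting cells, was at 555 to 1124 TPM in AF-high and 448 to 543 TPM in young (log2 0.69 ± 0.20, adjusted p = 0.227). On the lower side the lectin receptor Clec4a3 was at 25.8 to 47.7 TPM in AF-high and 58.9 to 74.1 TPM in young (log2 -0.64 ± 0.19, adjusted p = 0.229). Of 38 phagocytic receptors, signalling chains and oxidase subunits, 6 were higher and 2 lower without overlap (all genes, 2.63% and 5.15%). The lower count was near the share over all genes. Fcer1g, the signalling chain shared by activating Fc receptors, was at 1718, 2023, 1767, 1551 and 1528 TPM in AF-high 1 to 5 and 1059.9, 1055 and 1015 TPM in young 1 to 3 (log2 0.71 ± 0.12, adjusted p = 0.0582). The young values lay close together, well under the lowest AF-high value. Tyrobp, the partner chain of Trem2, was at 1643 to 2919 TPM in AF-high and 1563 to 1948 TPM in young (log2 0.26 ± 0.19, adjusted p = 0.651). Fcgr1, the high-affinity IgG receptor that pairs with Fcer1g, lay on the other side at 122, 109, 109, 140.0 and 124 TPM in AF-high 1 to 5 and 155, 160.5 and 204 TPM in young 1 to 3 (log2 -0.51 ± 0.16, adjusted p = 0.264). The bridging protein Mfge8, which tags dying cells, was at 1.82 to 9.24 TPM in AF-high and 7.57 to 14.2 TPM in young (log2 -1.08 ± 0.36, adjusted p = 0.284).

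Interferon-induced genes were higher for 41 of 60 members (median 0.18) and 4 were higher and 1 lower without overlap (all genes, 2.63% and 5.15%). Besides Ifi207 the higher ones were Lgals3bp, Ifi204 and Gbp2, a guanylate-binding GTPase, at 25.8 to 52.2 TPM in AF-high and 17.99 to 23.4 TPM in young (log2 0.94 ± 0.22, adjusted p = 0.13). Lgals3bp, a galectin-binding glycoprotein, was at 109.6 to 254 TPM in AF-high and 64.9 to 82.96 TPM in young (log2 0.86 ± 0.24, adjusted p = 0.211). Ifi204, a paralogue of Ifi207 that can share its reads, was at 34.6 to 37.5 TPM in AF-high and 19.3 to 32.6 TPM in young (log2 0.50 ± 0.17, adjusted p = 0.289). AF-high 2 set the top of the Lgals3bp range and was far from the other 4. For MHC class I and its loading, 14 of 24 were above 0 (median 0.06, but 0.02 with young 3 as the only young library). Of the 24, 4 were higher without overlap (all genes, 2.63%). B2m, the light chain of class I, was at 8976, 7364, 8085, 7666 and 7896 TPM in AF-high 1 to 5 and 5917, 5734 and 6029.6 TPM in young 1 to 3 (log2 0.44 ± 0.13, adjusted p = 0.241). H2-Q5 was at 98.9 to 166 TPM in AF-high and 62.9 to 97.5 TPM in young (log2 0.55 ± 0.17, adjusted p = 0.252). The classical H2-D1 was at 525 to 1116 TPM in AF-high and 582 to 788 TPM in young (log2 0.31 ± 0.20, adjusted p = 0.598). For MHC class II, 3 of 12 genes were above 0 (all genes, 39%) and the median was -0.105. Of these 12, 0 were without overlap (all genes, 2.63% higher and 5.15% lower), which is near those shares for so few genes. The class II invariant chain Cd74 was at 70.1 to 90.7 TPM in AF-high and 64.5 to 78.2 TPM in young (log2 0.12 ± 0.14, adjusted p = 0.795). Of 20 complement genes 4 were higher without overlap (all genes, 2.63%). Among them was C4b at 6.43, 6.10, 7.58, 14.5 and 17.1 TPM in AF-high 1 to 5 and 3.44, 3.09 and 5.17 TPM in young 1 to 3 (log2 1.12 ± 0.30, adjusted p = 0.185). The receptor chain Itgam was at 428 to 662 TPM in AF-high and 395 to 416 TPM in young (log2 0.37 ± 0.14, adjusted p = 0.336).

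Lysosomal hydrolases, the enzymes that degrade what microglia take up, showed no lean: 25 of 50 were above 0 and the median was 0.00. At an unadjusted p under 0.05, 1 was higher and 2 were lower (all genes, 3.57% and 7.41%). Ctsd, the main aspartic protease, was at 2739 to 3356 TPM in AF-high and 2453 to 2862 TPM in young (log2 0.14 ± 0.15, adjusted p = 0.776). The gene model Gm49369, on chromosome 7 from 142371096 to 142382667 (GRCm38), overlaps Ctsd on the same strand and is named after its values were seen. It was at 19.6, 2065, 1381, 166 and 516 TPM in AF-high 1 to 5 and 9.39, 7.497 and 3.80 TPM in young 1 to 3. Summed over the 2, the locus had 2856, 5421, 4120, 3238 and 3369 TPM in AF-high 1 to 5 and 2463, 2752 and 2866 TPM in young 1 to 3. So 4 of 5 AF-high libraries were above the highest young one and AF-high 2 stood highest. The mean of the sum was 3801 ± 1015 TPM (SD, n = 5) in AF-high and 2694 ± 208 (n = 3) in young, as against 2971 ± 248 and 2687 ± 211 for Ctsd alone. Lgmn, a further abundant hydrolase, differed by -0.21.

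Of 45 genes of the lysosomal membrane and proton pump, 22 were above 0, and 4 were higher and 2 lower without overlap (all genes, 2.63% and 5.15%). The lower count is near the share over all genes. Slc11a1, a metal transporter of phagosomes, was at 111 to 165 TPM in AF-high and 86.3 to 101 TPM in young (log2 0.55 ± 0.15, adjusted p = 0.209). Atp6v1a, the catalytic subunit of the proton pump, was at 63.8 to 115 TPM in AF-high and 47.2 to 62.9 TPM in young (log2 0.58 ± 0.20, adjusted p = 0.3). The transmembrane protein Tmem192 was at 8.97 to 24.9 TPM in AF-high and 29.6 to 36.1 TPM in young (log2 -0.70 ± 0.28, adjusted p = 0.362). Cd68 was at 1206, 1795, 1019, 1041 and 1374 TPM in AF-high 1 to 5 and 848, 937 and 913 TPM in young 1 to 3 (log2 0.49 ± 0.16, adjusted p = 0.296), AF-high 3 and 4 being nearest to young. In autophagy, with 22 of 48 above 0, Rab7, the GTPase of late endosomes, was at 581, 804, 649, 423 and 677 TPM in AF-high 1 to 5 and 289.8, 365 and 332 TPM in young 1 to 3 (log2 0.90 ± 0.20, adjusted p = 0.121). The receptor Optn was at 31.7 to 58.7 TPM in AF-high and 21.3 to 28.5 TPM in young (log2 0.91 ± 0.24, adjusted p = 0.176). The fusion protein Snap29 was at 16.8 to 23.5 TPM in AF-high and 12.5 to 14.5 TPM in young (log2 0.50 ± 0.17, adjusted p = 0.3), and AF-high 4 was the lowest of the 5 for all 3. Gabarapl2, a ubiquitin-like protein of autophagosomes, was at 14.5 to 29.1 TPM in AF-high and 37.4 to 41.6 TPM in young (log2 -0.75 ± 0.24, adjusted p = 0.278). Among iron genes the importer Slc11a2 was at 88.2 to 138 TPM in AF-high and 56.9 to 68.7 TPM in young (log2 0.88 ± 0.19, adjusted p = 0.121). The transferrin receptor Tfrc was at 3.43 to 10.1 TPM in AF-high and 10.6 to 14.5 TPM in young (log2 -0.97 ± 0.27, adjusted p = 0.217), opposite in direction and each without overlap.

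Chaperone genes lay mostly below 0. Of 46 genes of heat shock and protein folding, 34 lay below 0 (median -0.23), 10 were lower and 0 higher at an unadjusted p under 0.05, and 3 were lower without overlap (all genes, 7.41% and 3.57% by p, and 5.15% lower without overlap). Hspa8, the constitutive HSP70, was at 2614, 1866, 1805, 2296 and 1752 TPM in AF-high 1 to 5 and 3314, 5456 and 6008 TPM in young 1 to 3 (log2 -1.22 ± 0.22, adjusted p = 0.0628). Young 1 was the lowest young library for it. The co-chaperone Dnajb1 was at 128 to 271 TPM in AF-high and 216 to 540.3 TPM in young (log2 -0.92 ± 0.30, adjusted p = 0.276). Its relative Dnaja1 was at 334 to 529 TPM in AF-high and 475 to 1014 TPM in young (log2 -0.84 ± 0.26, adjusted p = 0.252), and both overlapped through young 1. Eif2ak3, the kinase PERK of the unfolded protein response, was at 7.46 to 13.9 TPM in AF-high and 18.8 to 21.98 TPM in young (log2 -0.88 ± 0.23, adjusted p = 0.171). Immediate early genes, which encode transcription factors induced soon after a stimulus, went both ways. Of 31, 4 were higher and 5 lower at an unadjusted p under 0.05 (all genes, 3.57% and 7.41%). Fos was at 445, 849, 852, 1177 and 473 TPM in AF-high 1 to 5 and 1031, 1549 and 2003 TPM in young 1 to 3 (log2 -1.05 ± 0.33, adjusted p = 0.264). Dusp6, a phosphatase of ERK, was at 44.3 to 133 TPM in AF-high and 130.4 to 152 TPM in young (log2 -0.89 ± 0.27, adjusted p = 0.252). Klf4 was at 208 to 381 TPM in AF-high and 141 to 202 TPM in young (log2 0.66 ± 0.22, adjusted p = 0.292). The groups overlapped for Fos and Dusp6 through AF-high 4.

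Mitochondrially encoded genes were higher for 13 of 13 members (median 0.74), and 5 were higher without overlap (all genes, 2.63%). mt-Nd1, a subunit of complex I, was at 2659.6, 6679, 7912, 2480.3 and 2633 TPM in AF-high 1 to 5 and 2194, 1941 and 1946 TPM in young 1 to 3 (log2 0.95 ± 0.35, adjusted p = 0.326), and AF-high 2 and 3 carried most of the difference. With those 2 libraries left aside the median of the list was 0.22, with 10 of 13 above 0. Nuclear-encoded subunits of the respiratory chain went the other way, 49 of 73 being below 0 (median -0.15), yet without AF-high 2 and 3 the median was 0.04 and with young 3 alone 0.05. A direction for them therefore depends on these libraries. Ndufa8 was at 9.52, 2.80, 3.19, 9.42 and 10.6 TPM in AF-high 1 to 5 and 19.00, 13.6 and 16.8 TPM in young 1 to 3 (log2 -1.25 ± 0.42, adjusted p = 0.292), lowest in AF-high 2 and 3.

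Cytosolic ribosomal protein genes were higher for 67 of 80 members (median 0.20), 15 at an unadjusted p under 0.05 (all genes, 3.57%) and 8 without overlap (2.63%). Here AF-high 2 and 3 were the low AF-high libraries: the genes took 3.36% and 3.08% of TPM in them, 5.68%, 5.03% and 4.10% in AF-high 1, 4 and 5, and 3.25 to 3.82% in young. With AF-high 2 and 3 left aside the count was 80 of 80 above 0, 47 at an unadjusted p under 0.05, and the median was 0.44. Rpl22 was at 589.9, 483, 397, 528 and 372 TPM in AF-high 1 to 5 and 289.7, 338 and 279 TPM in young 1 to 3 (log2 0.63 ± 0.17, adjusted p = 0.197). Rps27 was at 1723 to 3082 TPM in AF-high and 1481 to 1744 TPM in young (log2 0.52 ± 0.18, adjusted p = 0.294), and AF-high 5 was the lowest of the 5 for both. The glycolytic enzyme Gapdh was at 621 to 935 TPM in AF-high and 518 to 606 TPM in young (log2 0.47 ± 0.15, adjusted p = 0.264). Pgk1, the next enzyme of the pathway, was at 18.00 to 40.2 TPM in AF-high and 33.5 to 55.6 TPM in young (log2 -0.63 ± 0.25, adjusted p = 0.377). Of 39 proteasome genes 30 were below 0 (median -0.16, but 0.05 without AF-high 2 and 3). Psma1 was at 43.9 to 72.7 TPM in AF-high and 87.97 to 96.8 TPM in young (log2 -0.63 ± 0.21, adjusted p = 0.289). The interferon-induced activator Psme1 was at 169.6 to 271 TPM in AF-high and 156 to 169.5 TPM in young (log2 0.42 ± 0.17, adjusted p = 0.362).

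Genes of cell-cycle arrest and of proteolysis outside the cell were counted next. Cdkn1a, the p21 inhibitor of cyclin-dependent kinases, was at 841, 444, 394, 775 and 850.4 TPM in AF-high 1 to 5 and 299, 327 and 254 TPM in young 1 to 3 (log2 1.10 ± 0.32, adjusted p = 0.234). All AF-high libraries exceeded the young ones, and AF-high 2 and 3 were the lower of the 5. Cdkn2a was not among the tested genes. Plaur, the urokinase receptor, was at 399.9, 152, 164, 74.5 and 351 TPM in AF-high 1 to 5 and 50.5, 59.95 and 47.2 TPM in young 1 to 3 (log2 1.86 ± 0.64, adjusted p = 0.3), with AF-high 1 and 5 high and AF-high 4 nearest to young. The crosslinking enzyme Tgm2 was at 59.3 to 104 TPM in AF-high and 39.7 to 49.4 TPM in young (log2 0.84 ± 0.21, adjusted p = 0.169). Of 30 genes of senescence and p53, 13 were above 0 (median -0.07, but 0.03 with young 3 as the only young library). Of 32 proteases and matrix genes 8 were higher and 1 lower without overlap (all genes, 2.63% and 5.15%), and 7 were higher and 4 lower at an unadjusted p under 0.05 (3.57% and 7.41%). Of these 32, 17 were above 0 (median 0.08, and 0.22 with young 3 as the only young library). Of 40 genes of cell cycle and replication 1 was higher and 1 lower without overlap, no more than the shares over all genes.

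Among receptors for lipids and metabolites, the smallest p was that of Hcar2. Hcar2, the receptor for ketone bodies and niacin, was at 9.02, 7.70, 8.24, 10.1 and 5.11 TPM in AF-high 1 to 5 and 2.64, 3.85 and 2.72 TPM in young 1 to 3 (log2 1.14 ± 0.21, adjusted p = 0.073). Ptger4, a prostaglandin E2 receptor, was at 20.3 to 26.3 TPM in AF-high and 12.8 to 18.2 TPM in young (log2 0.58 ± 0.18, adjusted p = 0.246). S1pr1, a receptor for sphingosine-1-phosphate, was at 21.7 to 27.4 TPM in AF-high and 30.7 to 32.4 TPM in young (log2 -0.38 ± 0.14, adjusted p = 0.32). These 3 did not overlap between the groups, whereas the next did. The prostaglandin synthase Ptgs2 was at 9.95 to 26.1 TPM in AF-high and 8.68 to 12.04 TPM in young (log2 0.77 ± 0.29, adjusted p = 0.344). In TGF-beta signalling, which maintains microglial identity, 0 of 24 genes were without overlap (all genes, 2.63% higher and 5.15% lower). Above 0 were 7 of the 24 (all genes, 39%). Smad7, the feedback inhibitor of TGF-beta signalling, was at 41.6 to 63.9 TPM in AF-high and 56.7 to 90.8 TPM in young (log2 -0.48 ± 0.19, adjusted p = 0.351). Lipid and cholesterol genes were near the background, with 17 of 42 above 0. Dhcr7, an enzyme of the last steps of cholesterol synthesis, was at 9.31 to 11.1 TPM in AF-high and 14.2 to 16.2 TPM in young (log2 -0.52 ± 0.18, adjusted p = 0.3). Of 20 clock genes 4 were lower and 1 higher at an unadjusted p under 0.05 (all genes, 7.41% and 3.57%). Among them was Nr1d2 at 55.3 to 105 TPM in AF-high and 102 to 167 TPM in young (log2 -0.63 ± 0.22, adjusted p = 0.3). Rora was at 5.93 to 11.6 TPM in AF-high and 4.28 to 6.90 TPM in young (log2 0.74 ± 0.25, adjusted p = 0.287). The labels do not state the time of day of the sorts. Of 35 nucleotide receptors and channels 0 were without overlap (all genes, 2.63% higher and 5.15% lower). P2rx7 was at 132 to 202 TPM in AF-high and 98.9 to 139 TPM in young (log2 0.39 ± 0.17, adjusted p = 0.398).

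**Figure D5:**
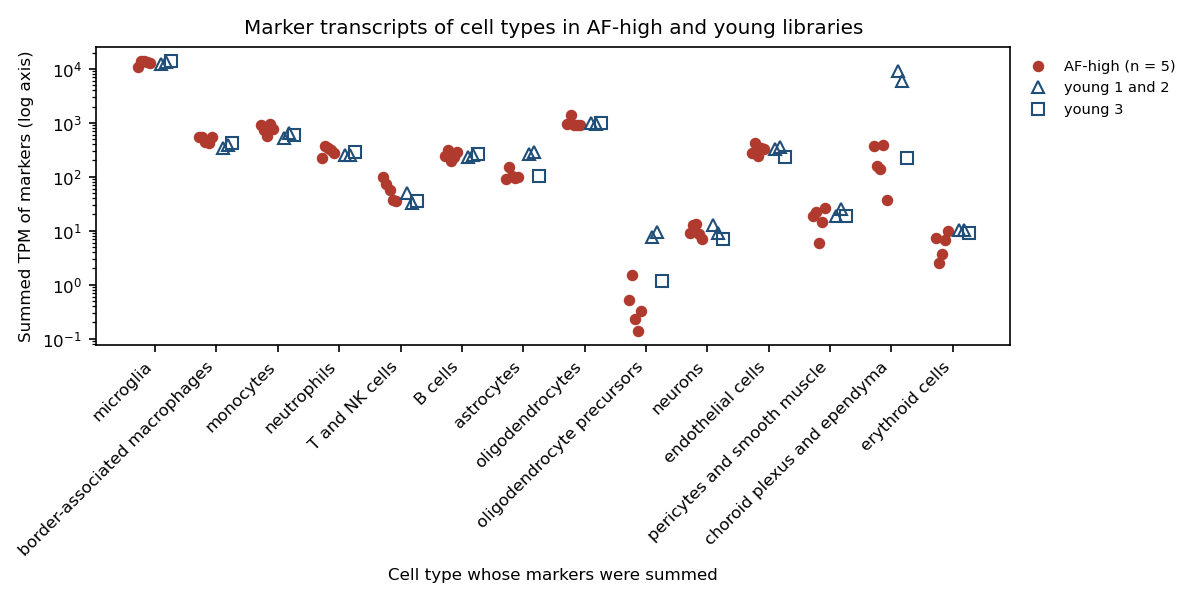
Summed TPM of the measured markers of other cell types in each of the 8 libraries, on a log axis (AF-high as filled circles, young 1 and 2 as open triangles, young 3 as open squares). Young 1 and 2 are above the other libraries for choroid plexus, astrocytes and oligodendrocyte precursors, and AF-high is above young for border-associated macrophages, except for AF-high 4 against young 3.

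Transcripts of choroid plexus and astrocytes separated young 1 and 2 from the other 6 libraries. Of 17 markers of choroid plexus and ependyma 9 passed the filter, and of 14 of astrocytes 9. For choroid plexus and ependyma, 8 of 9 tested markers were lower at an unadjusted p under 0.05 (all genes, 7.41%) and the median was -2.36. With young 3 as the only young library the median was -0.31 and 3 markers were above 0. Ttr, transthyretin, was at 313, 131, 110.3, 341 and 25.7 TPM in AF-high 1 to 5 and 7770, 5084 and 176 TPM in young 1 to 3 (log2 -3.84 ± 1.04, adjusted p = 0.197). Young 3 lay within the AF-high range. The 9 astrocyte markers had a median of -0.89 with all libraries and of -0.14 with young 3 alone, and the glutamate transporter Slc1a2 was at 1.09, 6.93, 2.42, 2.20 and 0.856 TPM in AF-high 1 to 5 and 33.98, 64.1 and 4.27 TPM in young 1 to 3. The list sums are in the plot of marker sums. Gfap and Aqp1 were not among the tested genes, and the part of these cells in the other results was not tested beyond these values.

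Border-associated macrophages, the macrophages of vessels and meninges, had sums of 415 to 554 TPM in AF-high and 339 to 417 TPM in young. Of 17 markers 11 were above 0 (median 0.28), and 1 was higher and 1 lower without overlap (all genes, 2.63% and 5.15%). With young 3 as the only young library 9 were above 0 and the median was 0.05. Mrc1, the mannose receptor, was at 23.1, 22.9, 23.1, 21.4 and 25.8 TPM in AF-high 1 to 5 and 18.5, 16.8 and 18.4 TPM in young 1 to 3 (log2 0.36 ± 0.18, adjusted p = 0.484). Mgl2, a lectin of these macrophages, was at 0.920, 0.169, 0.983, 1.25 and 0.528 TPM in AF-high 1 to 5 and 1.57, 3.94 and 2.41 TPM in young 1 to 3 (log2 -1.02 ± 0.33, adjusted p = 0.275). Monocyte marker sums were 557 to 939.7 TPM in AF-high and 520 to 652 TPM in young, with Lyz2 the largest contributor. Of 11 tested monocyte markers, however, 4 were above 0 and 7 below (median -0.09). With young 3 as the only young library 9 of them were above 0 and the median was 0.12. B-cell marker sums overlapped, at 198 to 317 TPM in AF-high and 228 to 263 TPM in young. Of 5 tested B-cell markers 4 were above 0 and 1 below (median 0.02). With young 3 as the only young library 2 were above 0. Among lymphocyte markers Cd79b, a B-cell receptor chain, was at 2.17 to 9.34 TPM in AF-high and 10.2 to 13.5 TPM in young (log2 -1.41 ± 0.33, adjusted p = 0.125). Ccl5, made by T and NK cells, was at 5.59 to 75.8 TPM in AF-high and 3.87 to 21.4 TPM in young, AF-high 1 being the high one. Only 5 of 18 T and NK cell markers and 3 of 14 neutrophil markers were tested.

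The AF-low and PLX5622 libraries place the differences beside old microglia of the other gate and of treated mice. The comparisons with young share the 3 young libraries and those with AF-high share the 5 AF-high libraries, so their values are set side by side. Of the 12 genes with the widest upward gap, 10 had all 3 AF-low libraries above the highest young library and 8 all 4 PLX5622 libraries. Of the 12 downward genes these numbers were 11 and 7. None of the 24 passed between AF-high and AF-low (limma, 0 called, smallest adjusted p = 0.571, and 0 of 13175 over all genes), and 1 passed between PLX5622 and AF-high, Cebpzos, which was higher in PLX5622 (log2 0.82 ± 0.17, adjusted p = 0.0426). The test of AF-high against AF-low was unpaired, and the titles do not state whether both gates share animals. Over all genes 21 were higher and 62 lower in PLX5622 than in AF-high (0.159% and 0.471% of those tested). Between AF-low and young 6 genes passed (0.0455%), and 2 of these, Emp3 and Ifi207, were among the 12 upward genes.

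Spp1 was at 12.3, 5.68 and 18.6 TPM in AF-low and 20.7, 18.5, 13.8 and 21.2 TPM in PLX5622 libraries, all above the young ones. H2-Q7 was at 250.3, 155 and 237 and 146, 152, 131 and 149 TPM in the same groups, and Itgax at 13.8, 7.04 and 20.1 and 14.3, 10.8, 7.45 and 10.1 TPM. These 3 genes were thus above the young range in old mice of either gate and of the PLX5622 group. Il1b was at 651, 322 and 902 TPM in AF-low and 285, 242, 229 and 269.9 TPM in PLX5622 libraries (log2 -1.12 ± 0.40 for PLX5622 minus AF-high, adjusted p = 0.195), and Plaur at 488, 38.7 and 298 and 46.3, 57.2, 52.9 and 70.7 TPM (log2 -1.76 ± 0.59, adjusted p = 0.17). Hspa8 was at 1899.9, 2728 and 2040.5 and 1897, 1690.4, 2261 and 2681 TPM.

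Of the genes named here, 10 passed between PLX5622 and AF-high, and 8 of these had a higher mean in AF-high than in young. The difference of PLX5622 from young, on the log2 scale, was -0.98 for Mrc1 and 3.89 for Cxcl13, and lay between -0.30 (Adgrg1) and 0.01 (Fcer1g) for the other 6. Fcer1g was at 939, 1146, 972 and 1172 TPM in PLX5622 libraries (log2 -0.70 ± 0.11 for PLX5622 minus AF-high, adjusted p = 0.0231), and at 1481, 1473 and 1561 TPM in AF-low. Rab7 was at 278, 296, 266 and 334 TPM in PLX5622 (log2 -1.07 ± 0.18, adjusted p = 0.0231) and 602, 401 and 661 TPM in AF-low. The remaining 4 of those 6 were Spi1 (log2 -0.63 ± 0.13, adjusted p = 0.0411), Cd80 (log2 -1.05 ± 0.19, adjusted p = 0.0278), Slc11a2 (log2 -1.01 ± 0.17, adjusted p = 0.0231) and Adgrg1 (log2 -1.18 ± 0.23, adjusted p = 0.0362). Mrc1 was at 7.20, 10.97, 6.33 and 10.5 TPM in PLX5622, under the young range (log2 -1.34 ± 0.16, adjusted p = 0.00603). S1pr1, lower in AF-high than in young, was lower again in PLX5622 (log2 -0.58 ± 0.12, adjusted p = 0.0495), and Cxcl13 was higher there (log2 2.45 ± 0.43, adjusted p = 0.0266). These comparisons share the AF-high libraries with the one against young, so a high AF-high value enters both. Gm49369 was between 7.68 and 12.6 TPM in PLX5622 and between 67.3 and 488 TPM in AF-low libraries.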

How the data were processed

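RNA of FACS-sorted microglia was extracted, its cDNA amplified and low-input libraries made, per the labels' protocols. The authors deposited 1 table of TPM per gene symbol for 15 libraries. The submitters' processing notes name FastQC 0.11.8, Salmon 1.0.0, DESeq2 and the builds GRCm38 and mm10, without roles. Labels and notes do not state the annotation or the filter on genes. TPM are relative to each library's total and hold no read count, so depth and counting error are unknown, and amplified low-input libraries may add scatter.

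Of 13834 genes, 13175 had at least 1 TPM in at least 3 libraries. Log2(TPM + 1) values were fitted with limma 3.58.1 (R 4.3.3) with an intensity trend, all 15 libraries in 1 fit of 4 groups (11 residual degrees of freedom), and p-values were adjusted by Benjamini-Hochberg over all genes tested. SEs are limma's. Positions and overlaps are from GENCODE M21 (GRCm38), matched for 13744 of 13833 symbols. 19 symbols had been turned into dates. No 2 libraries held identical values (0 pairs).

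Named genes were the 12 widest gaps each way (unadjusted p under 0.01, 5 TPM or more on average where higher, no predicted, mitochondrial or ribosomal genes), the 6 smallest p, up to 4 members of a list by t and 3 by level, and 10 microglial genes; of those, the ones printed were picked with their values seen. The members and the 44 lists were chosen with earlier results of these data known. Alternatives were another pseudocount, filters, quantile normalization, weights, fewer libraries and a replicate block; tools for counts were not run on TPM. 1 of the 12 upward genes is not reported here. The fit was tested on simulated data. Of 100 genes changed by 1 log2 unit in AF-high it called 50, and of 100 changed by 2 it called 90. There were 10 false calls. The simulation gave a gene the same spread in all groups, unlike the libraries here. Figures were drawn with matplotlib.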

Additional observations from a re-analysis of the deposited data

Results flagged for a closer look

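In each item below 1 AF-high library was far from the other 4 by Dixon's test at its 95% critical value for 5 samples (0.71). Of 129 gene levels and marker sums tested 13 were so, and chance gives about 5%. AF-high 2 held 6 of the 13. It was low for Clec4a3 (25.84 TPM) and high for Lgals3bp (254.1 TPM), Slc1a2 (6.932 TPM) and the marker sums of astrocytes (149.9 TPM), oligodendrocytes (1401 TPM) and oligodendrocyte precursors (1.507 TPM). AF-high 1 was high for Adam22 (9.203 TPM) and Ccl5 (75.78 TPM). AF-high 3 was low for Nid2 (3.62 TPM) and Tmem192 (8.973 TPM). AF-high 4 was low for Depp1 (10.74 TPM) and high for Cd79b (9.336 TPM) and Ccl12 (5334 TPM).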

How the results depend on the processing

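The count of genes past the threshold, 0 in each direction, was 1 higher under quantile normalization, 67 higher and 62 lower with a weight per library, and 11 higher and 2 lower with a weight per group. Leaving out 1 library at a time gave 0 to 9 higher and 0 to 57 lower. At an unadjusted p under 0.05 the 470 higher and 976 lower genes became 711 and 753 under quantile normalization, 770 and 1470 with a weight per library, 132 and 240 with young 1 and 2 left aside, and 286 to 616 and 495 to 1200 leaving out 1 library. Genes without overlap, 347 higher and 678 lower, became 544 and 525 under quantile normalization, 997 and 2136 with young 1 and 2 left aside, 973 and 1609 with AF-high 2 and 3 left aside, and 347 to 593 and 678 to 1329 leaving out 1 library; fewer libraries leave fewer values that can overlap. Otherwise the cause was not tested.

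For the 112 named genes, 2706 of 2797 alternative values kept their direction and side of the threshold, 79 values of 45 genes passed it, and 12 values of 3 genes changed sign. Tmem119, at 0.00, was at -0.0741 under quantile normalization, -0.0423 with a weight per library, -0.0281 with the replicate block, -0.0874 with young 1 and 2 left aside, -0.0222 with AF-high 2 and 3 left aside, and from -0.0627 to 0.0474 leaving out 1 library, below 0 without AF-high 2, AF-high 4 or young 1. Trem2 was at 0.197 with AF-high 2 and 3 left aside and from -0.133 to 0.156 leaving out 1 library, above 0 without AF-high 3 or young 2. Clec7a ranged from -0.103 without AF-high 4 to 0.393 leaving out 1 library, and was at 0.449 with AF-high 2 and 3 left aside.

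Replicate numbers recur between the groups. Deviations of same-numbered AF-high and young libraries correlated at 0.141, 0.0167 and 0.0184 across genes. Those of differently numbered libraries correlated at -0.0991 to 0.0498, so AF-high 1 with young 1 (0.141) was the highest. The numbers were not taken as pairs, since the groups come from different animals of different age. With the replicate block 0 genes passed, with a smallest adjusted p of 0.193 against 0.0582 without it.

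Limits are the 3 young libraries, of which 2 carried choroid plexus transcripts, an age contrast whose autofluorescence gate is given for the old mice alone, and TPM without depth.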
